A study of Oryctolagus cuniculus with 10 samples.

Results

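PPARA, the nuclear receptor that switches on fatty acid oxidation in the fasted liver, was examined together with 6 genes tied to it: CREB3L3, FGF21, ANGPTL4, PDK4, BDH1 and EHHADH. These 7 genes were chosen by their roles, with the level ratios of the same comparison already known, so their ratios are given as a description and support no test. A row was found for 6 of the 7 among the 19123 genes of the table. CREB3L3, a liver transcription factor that acts with PPARA on FGF21, had no row under its symbol. Its gene ID in RefSeq's mOryCun1.1 assembly, 138845581, had none either. The paper mapped reads to a different rabbit assembly, so a row under another ID or symbol may exist.

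Livers came from male wild-type New Zealand white rabbits, 5 fed a control diet enriched with 1% sunflower oil and 5 fed the same oil with 0.5% squalene, a triterpene precursor of sterols. Both diets were given for 4 weeks, and the animals of both groups were starved before the liver was taken, so every value below describes a fasted liver. The paper reports a slight decline in food intake with squalene, not significant in its supplement, and no change in body weight. Polyadenylated RNA was sequenced, and the 10 libraries held from 45.26 M to 46.12 M clean reads. The deposited table gives 1 expression level per diet and no value per rabbit, and the paper describes the sequenced samples as partially pooled. No difference below therefore has a replicate error, an n or a p-value.

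In the fasted liver, fatty acids released from adipose tissue bind PPARA, which pairs with a retinoid X receptor and turns on genes of mitochondrial and peroxisomal oxidation and of ketone body synthesis. CREB3L3 is held in the membrane of the endoplasmic reticulum and is cut free on fasting. Together they drive the secreted hormone FGF21, while ANGPTL4 restrains lipoprotein lipase and PDK4 shuts pyruvate out of the citric acid cycle. BDH1 interconverts acetoacetate and 3-hydroxybutyrate, and EHHADH is the peroxisomal bifunctional enzyme of beta-oxidation.

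Of the 6 genes with a row, 5 were higher in level with squalene and 1, PPARA itself, was lower, with lost decimal marks placed as described below. The median log2 level ratio (squalene over control) of the 6 was 0.41, beside 0.02 over all genes. FGF21 lay apart from the others at a ratio of 2.73, and BDH1, PDK4, EHHADH and ANGPTL4 lay between 1.26 and 1.35. FGF21 was the only one of the 6 with a ratio of 1.5 or more, a size that 4.70% of all genes reached upwards, 3.00% downwards and 7.69% in either direction. A level at least 25% higher was found in 5 of the 6 and in 16.4% of all genes, and 12.8% of all genes were lower by the same ratio. Since the choice of the genes used this contrast, nothing is read from these counts.

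A limit of the table bears on each ratio. Levels of 1 or more had lost their decimal mark, so a ratio was known only up to a power of 10, and the power nearest to a ratio of 1 was taken. A change beyond 3.16-fold would be read wrongly in this way. Levels below 1 had kept the mark. The levels of all 6 genes were at least 1, and none of the 6 shared its pair of levels with another gene.

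FGF21 (gene ID 100356340) is the liver hormone of fasting and of amino acid shortage. Its level read 4.73 in control and 12.9 in squalene-fed rabbits, on a scale whose power of 10 is unknown and which does not allow levels of different genes to be compared. The log2 ratio was 1.45, and 14 genes of the table had a higher one. With the other possible power of 10 the ratio would be 0.273, the reverse direction, and the level columns alone do not settle which of the 2 holds. The direction of FGF21 and its rank among genes therefore rest on the choice of the smaller change. With the other power, 4 of the 6 genes would be higher and 2 lower, at a median log2 ratio of 0.36.

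BDH1 (gene ID 100339007) read 2.53 in control and 3.43 in squalene-fed rabbits, a log2 ratio of 0.44. PDK4 (gene ID 100351580), the fasting-induced kinase of the pyruvate dehydrogenase complex, read 4.07 and 5.51, also a log2 ratio of 0.44. These genes lay higher than about 90.3% of all genes by ratio. EHHADH (gene ID 100346381) read 6.92 in control and 9.07 in squalene-fed rabbits, a log2 ratio of 0.39. ANGPTL4 (gene ID 100339191) read 3.94 and 4.98, a log2 ratio of 0.34. In these 4 genes the other power of 10 would give a ratio from 0.126 to 0.135.

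PPARA (gene ID 100356422) read 6.76 in control and 6.10 in squalene-fed rabbits, a log2 ratio of -0.15. With the power of 10 chosen, the receptor lay on the other side of 1 from the other 5 genes. The other power would give PPARA a ratio of 9.03. The level changed by -9.74% relative to control, and 27.8% of all genes had a lower ratio.

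**Figure D1:**
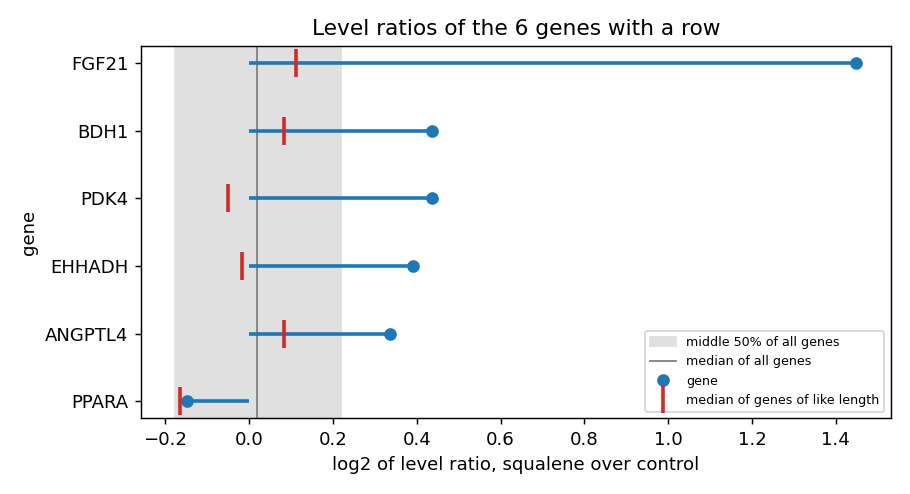
Log2 of the level ratio (horizontal axis, squalene over control) of the 6 genes with a row, 1 value per gene and no replicate error; red ticks mark the median of all genes in the same decile of listed length, and the grey band holds the middle 50% of all genes. FGF21 at 1.45 stands apart, 4 genes lie between 0.34 and 0.44, and PPARA at -0.15 lies on the median of genes of its length.

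The level ratio moved with the length listed for a gene across the whole table. Over deciles of length, the median log2 ratio was 0.11 in the shortest decile (up to 786 bases) and -0.16 in the longest (5424 bases or more). PPARA, at 6908 bases, belongs to the longest decile, and its log2 ratio differed from that decile's median by 0.02. FGF21, at 1274 bases, lay, with the power of 10 chosen, 1.34 above the median of its decile, in which 1 of 1910 genes had a higher ratio. PDK4 (3427 bases), EHHADH (3012 bases), BDH1 (1714 bases) and ANGPTL4 (1838 bases) lay above the medians of their deciles by 0.49, 0.41, 0.35 and 0.25 on the log2 scale. All 6 lay above the median of their decile, or 5 with FGF21 at -1.87, its value under the other power of 10. The part of length in these ratios was not tested.

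**Figure D2:**
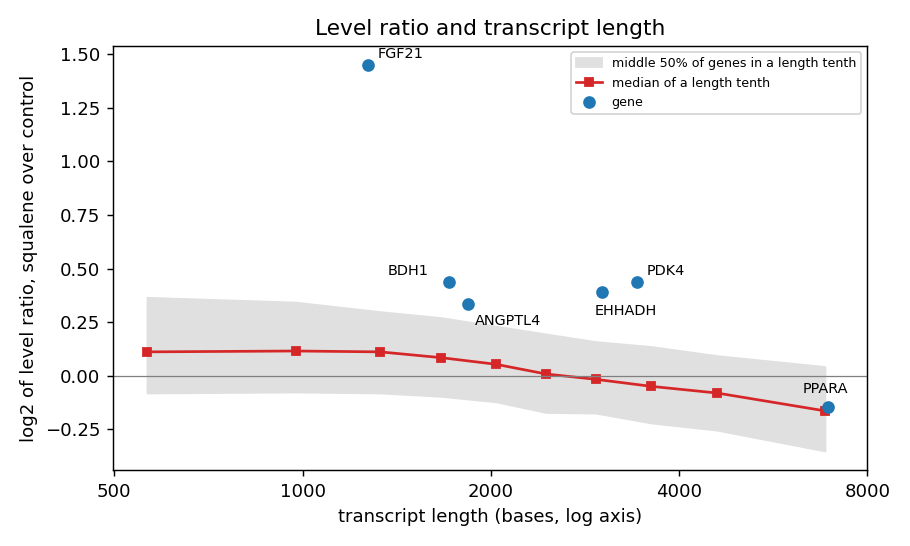
Log2 of the level ratio (vertical axis, squalene over control) against listed length in bases (log axis); red squares are medians of deciles of all genes by length, the grey band is the middle 50% of each decile, and blue points are the 6 genes. The medians go from 0.11 in the shortest decile to -0.16 in the longest, where PPARA lies.

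The genes around the 7 were described in 11 lists of known pathway members, several of which hold some of the 7. Over all genes of the table, 52.7% had a higher level with squalene at any ratio, the share beside which the counts below stand. Of the PPARA target genes, 36 of 42 had a row, 23 with a higher and 13 with a lower level, at a median log2 ratio of 0.14. A ratio of 1.5 or more was reached upwards by 5 of them and downwards by none. Besides FGF21 these were G0S2, an inhibitor of adipose triglyceride lipase, at 0.70, and ACADM, the medium-chain acyl-CoA dehydrogenase, at 0.64. The others were VNN1, a pantetheinase, at 0.60 and ACAA1, the peroxisomal thiolase, at 0.59. CPT1A, the gate of fatty acid entry into mitochondria, had no row.

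The partners and coregulators of PPARA lay low. Of 20 with a row, 3 were higher with squalene and 17 lower, at a median log2 ratio of -0.28. PPARGC1A, the coactivator induced by fasting, was at -0.67 and the receptor PPARD at -0.65, the only 2 past a ratio of 1.5. PPRC1, a relative of PPARGC1A, was at -0.53, and the coactivator NCOA2 was at -0.49. This list has a median length of 6458 bases, and relative to genes of like length its median was -0.19, with 15 lower and 5 higher. RXRA, the main retinoid X receptor of liver, had no row.

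Peroxisomal beta-oxidation had the highest median of the 11 lists. Of 19 genes with a row, 17 were higher on the squalene diet and 2 lower, at a median log2 ratio of 0.26, and 9 of them were higher by 25% or more. CROT, which passes shortened acyl chains to carnitine, was at 0.61 and ACAA1 at 0.59. DECR2 and ECH1, auxiliary enzymes for unsaturated fatty acids, were at 0.55 and 0.52. EHHADH at 0.39 lay close to HSD17B4, the other bifunctional enzyme, at 0.44. Relative to genes of like length the list's median was also 0.26. HSD17B4 is named here after its value was seen.

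Among the 13 peroxisome assembly genes with a row, 10 were higher and 3 lower, at a median log2 ratio of 0.09. PEX3, which places membrane proteins, was at 0.56 and PEX7, a receptor for imported enzymes, at 0.47. PEX11G was at 0.34 and PEX26 at -0.29. None was past a ratio of 1.5.

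**Figure D3:**
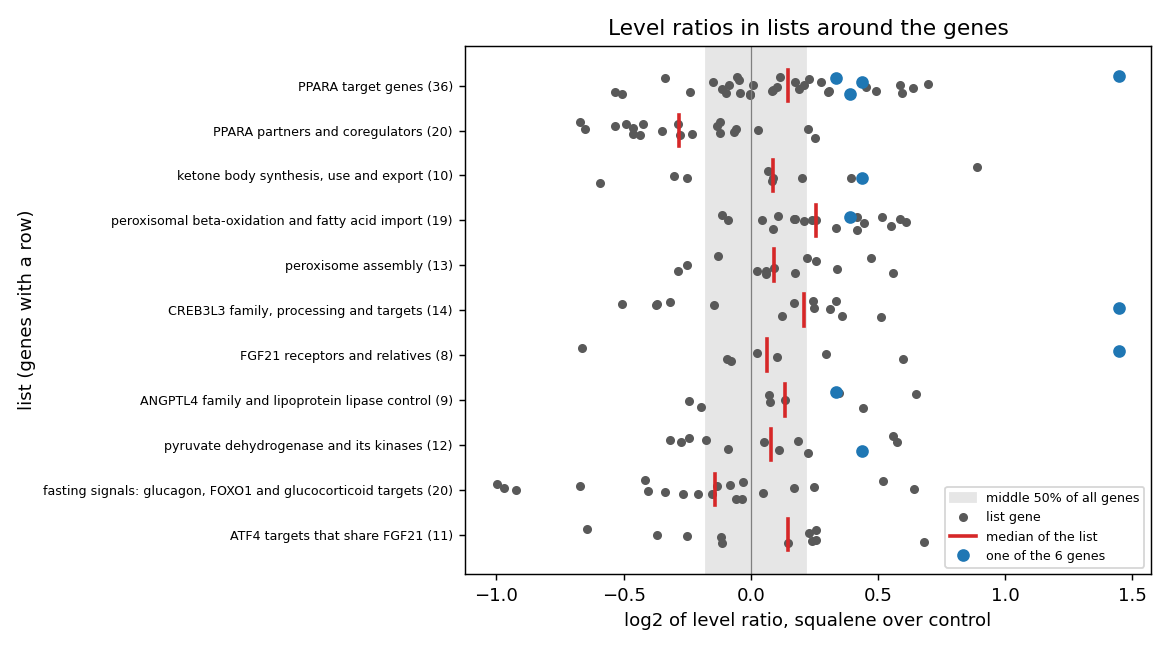
Log2 of the level ratio (horizontal axis, squalene over control) of each gene of the 11 lists, with the number of genes with a row in brackets; red bars are list medians, blue points are the 6 genes, and vertical scatter within a row has no meaning. The list of peroxisomal beta-oxidation has a median of 0.26 and that of PPARA partners and coregulators one of -0.28.

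Of the ketone body list, 10 of 11 genes had a row, 7 with a higher and 3 with a lower level, at a median log2 ratio of 0.09. ACAT1, the mitochondrial acetoacetyl-CoA thiolase, was at 0.07, inside the middle 50% of all genes, while BDH1 was at 0.44. BDH2, a cytosolic 3-hydroxybutyrate dehydrogenase, was at 0.89, the highest value of the list, and AACS, which returns acetoacetate to lipid synthesis, was at -0.25. OXCT1, the enzyme of ketone body use, was at 0.09. Of the carriers, SLC16A1 was at 0.20, SLC16A6 at -0.30 and SLC16A7 at -0.59.

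The 4 pyruvate dehydrogenase kinases all had a higher level on the squalene diet. PDK2 was at a log2 ratio of 0.58, PDK3 at 0.56, PDK4 at 0.44 and PDK1 at 0.22, so PDK4 was not the highest of its family. Of the complex's own subunits, PDHB and DLD were at 0.11 and 0.19, and PDHA1, PDHX and DLAT at -0.17, -0.24 and -0.27. The phosphatases PDP1 and PDP2, which undo the kinases' work, were at 0.05 and -0.09, and their regulator PDPR was at -0.32. The list of 12 genes had a median of 0.08, with 7 higher, 5 lower and none past a ratio of 1.5.

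FGF21 needs beta-Klotho (KLB) beside an FGF receptor. KLB was at a log2 ratio of -0.66, beside 1.45 for FGF21, or -1.87 with the other power of 10. Its length of 5542 bases puts it in the longest decile, 0.50 below that decile's median. The receptors FGFR1, FGFR2 and FGFR4 were at 0.30, 0.10 and 0.03, and FGFR3 had no row. FGF19, the bile acid-induced relative that also uses KLB, was at 0.60. KL and FAP, a protease that inactivates FGF21, were at -0.09 and -0.08.

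CREB3L3 itself could not be followed, but its family and targets could. CREB3 and CREB3L4 were at 0.36 and 0.31, CREB3L1 and CREB3L2 at -0.15 and -0.37. MBTPS1 and MBTPS2, the proteases that free CREB3L3 from the membrane, were at -0.32 and 0.12. Among the targets, APOA5, an activator of lipoprotein lipase, was at 0.51 and CIDEC, a lipid droplet protein, at -0.51. The 14 genes with a row had a median of 0.21, with 9 higher and 5 lower, and FGF21 was the only one past a ratio of 1.5. With digits read as written, the median of this list was -0.012.

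In the ANGPTL family, ANGPTL1 was at a log2 ratio of 0.65, the only one past a ratio of 1.5, ANGPTL4 at 0.34 and ANGPTL2 at -0.24. ANGPTL7 was at 0.44 with levels below 1 on both diets. Lipoprotein lipase (LPL), the enzyme that ANGPTL4 inhibits, was at 0.35, close to ANGPTL4. The 9 genes with a row had a median of 0.14, with 7 higher and 2 lower. ANGPTL6 and ANGPTL8 had no row.

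Targets and mediators of glucagon, FOXO1 and glucocorticoids were more often lower than higher. Of 20 with a row, 5 were higher with squalene and 15 lower, at a median log2 ratio of -0.14. Relative to genes of like length 9 were higher and 11 lower, at a median of -0.13. Past a ratio of 1.5, 4 were lower: the immediate early receptor NR4A1 at -1.0, the glucocorticoid targets FKBP5 and PER1 at -0.97 and -0.92, and PPARGC1A at -0.67. PCK1, the enzyme that commits carbon to glucose synthesis, was the only one past it upwards, at 0.64. IGFBP1, an insulin-repressed secreted protein, was at 0.52 and G6PC, the last step of glucose release, at -0.41. IGFBP1 and G6PC are named here after their values were seen.

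FGF21 is also a target of ATF4, the factor of amino acid shortage and endoplasmic reticulum stress. Of 11 genes of that list with a row, 6 were higher and 5 lower, at a median log2 ratio of 0.15. PHGDH, the first enzyme of serine synthesis, was at 0.68 and PSAT1, the next enzyme, at 0.26. TRIB3 and SESN2, stress-induced regulators, were at -0.64 and -0.37. Relative to genes of like length the median was 0.04.

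**Figure D4:**
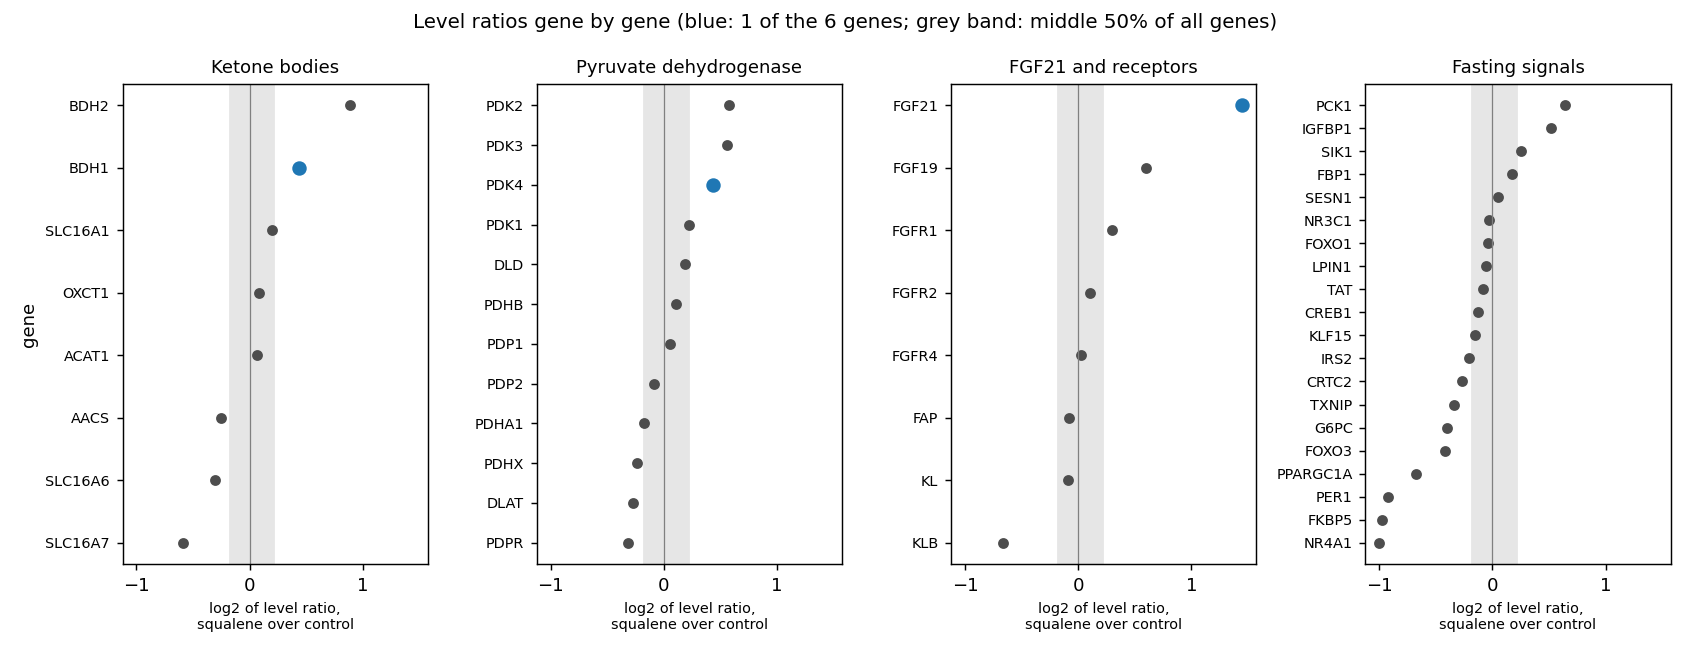
Log2 of the level ratio (horizontal axes, squalene over control) gene by gene in 4 lists (8 of the 10 ketone body genes are drawn), ordered by value, with the 6 genes in blue and the middle 50% of all genes as a grey band. BDH2 at 0.89, the kinases PDK2 and PDK3 at 0.58 and 0.56, and FGF21 at 1.45 top their panels or stand near the top. FGF21 is drawn with the power of 10 chosen, and with the other power it would be at -1.87. NR4A1, FKBP5 and PER1 lie lowest at -1.0 to -0.92.

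In bulk liver, fewer cells of a type and less RNA per cell cannot be told apart. Hepatocyte markers had a median log2 ratio of 0.27 over 8 genes, 6 higher and 2 lower, with ALB, the albumin gene, at 0.39 and HNF4A at -0.66. None of the 8 had levels below 1 on both diets. All 6 endothelial markers were lower, from -0.40 to -0.16. Medians were 0.04 for Kupffer cell, 0.04 for cholangiocyte, -0.04 for stellate cell and 0.18 for lymphocyte markers. Of the adipocyte markers only ADIPOQ had a row, at 0.48. The part of cell makeup in the ratios above was not tested.

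Genes that neighbour the 6 in RefSeq's mOryCun1.1 assembly did not reach a ratio of 1.5. Of 24 such neighbours, up to 2 on each side, 20 had a row, with log2 ratios from -0.52 to 0.47. Beside FGF21, BCAT2 was at 0.37, FUT1 at 0.47 and IZUMO1 at 0.09, and HSD17B14 had no row. None of the 6 genes, and no other gene of the lists, was among the 39 genes with a listed splicing event.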

How the data were processed

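Liver RNA of 10 rabbits was measured by RNA sequencing on the DNBseq platform. The authors mapped reads with HISAT2, predicted genes with StringTie, and computed levels with Bowtie and RSEM; versions are not given in the sources used here. The deposited table holds 1 normalized level per diet, and its columns of fold changes, p-values and adjusted p-values, the authors' own comparison, were not used. How the levels were normalized is not given in the sources used here.

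The log2 ratio of the 2 levels was computed with Python 3.11.15, pandas 2.3.3 and numpy 2.4.6, with no filter and no pseudocount. Where decimal marks were lost, the power of 10 nearest to a ratio of 1 was taken. This step was run on simulated levels whose ratios were drawn almost all within 3.16-fold. That run therefore cannot show that the step holds for larger changes, and it does not settle FGF21. No level was 0, 1937 genes shared both levels with another, and in the 521 genes at levels from 0.05 to 0.1 log2 ratios stayed between -0.08 and 0.08, a narrower range than at higher levels.

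The genes and lists were chosen with earlier results of these data known. Named were all 7 genes, their families, in each list the 4 genes with the largest ratio in size, and every list gene past 1.5; the other list genes and neighbours given (carriers, pyruvate dehydrogenase subunits and phosphatases, CREB3L3 proteases, FGF receptors, marker genes) were picked with their values in view. Some list genes, counted in the lists, are not reported here by name. Symbols were matched as written. DEPP1, KRT19 and LMF1 have rows under other symbols and were counted as without a row. So were CYP4A4 and G6PC1, whose gene IDs stand in the rows of CYP4A5 and G6PC, genes of the same lists, so the list sizes of 42 and 24 each count 1 gene more than once. Tables of variant sites name no gene and were not used. Neighbours were taken from gene order in RefSeq's mOryCun1.1 assembly; coordinates and sequences were not analysed here.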

Additional observations from a re-analysis of the deposited data

How the results depend on the processing

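With digits read as written, the log2 ratio of FGF21 reversed to -1.87, and list medians moved to -0.13 for PPARA partners and coregulators, -0.012 for the CREB3L3 family and 0.20 for FGF21 receptors and relatives. Relative to genes of like length, an alternative chosen after seeing the data, PPARA was at 0.02, FGF21 at 1.34 and the median of the ATF4 list at 0.037. Counting levels that differed by 25% or more, 3133 genes were higher and 2448 lower, and at a ratio of 2, 121 and 70, against 898 and 573 at 1.5. Centring on the median of all genes, leaving out predicted genes, leaving out the genes below 1 on both diets (chosen after seeing the data), counting all rows of a symbol and leaving out the 7 genes from the lists moved no log2 value by over 0.1 and no count by over 1.5 times. A pseudocount of 1 and a filter on the lowest levels were not run, since the size of levels of 1 or more is unknown. The tests of variant sites and of splicing were not run, since no site or event could be placed in the genes. No replicate could be left out, and no replicate block could be fitted. No paired analysis was possible because the table holds no value per rabbit.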

Other observations

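Besides FGF21 and FGF19, the table holds 12 other genes with FGF and a number as their symbol, a group chosen after their values were seen. Of the 14 in all, 6 had levels below 1 on both diets. FGF2, a growth factor of vessels and stroma, was at a log2 ratio of -0.85, the only one of the 14 lower by a ratio of 1.5 or more, with a listed length of 651 bases. FGF11 was at 0.41 and FGF1 at 0.09.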
